A study of Mus musculus with 10 samples.

Results

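The genes described here are 10 antimicrobial and defence genes of the gut lining, measured in mouse colonic organoids on Affymetrix whole-transcript arrays. They were chosen by name: the lectins Reg3b and Reg3g, the defensins Defb1 and Defb10, the cathelicidin Camp, the siderophore binder Lcn2, the antibody transporter Pigr, the oxidant enzymes Duox2 and Nos2, and the acute phase protein Saa1. Each was read from a probe set that the platform annotation assigned to that gene alone. Of the 10 genes, 9 had such a probe set, out of 18820 genes measured in this way. Saa1 had none, because its only probe set also carried other Saa genes, so it was not analysed here.

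Colonic organoids are cultures of pure epithelium grown from the stem cells of colon crypts. The donors were male, 3 of each genotype, and had a C57BL/6J background. Knockout (KO) mice carried Pparg with exons 1 and 2 flanked by loxP sites together with Villin-Cre, a recombinase gene driven by the villin promoter of the intestinal epithelium, and wild-type (WT) littermates were the controls. Pparg encodes the nuclear receptor PPARγ, which fatty acids bind and which the drug rosiglitazone activates. The arrays formed 4 groups: KO organoids given 1 µM rosiglitazone for 24 h (n = 3, mice 44, 45 and 46), KO organoids given 0.1% DMSO as vehicle (n = 2, mice 44 and 46), WT organoids given rosiglitazone (n = 3, mice 42, 47 and 48) and WT organoids given vehicle (n = 2, mice 42 and 47). Thus 4 of the 6 mice gave an array of each treatment, and the arrays of mice 45 and 48 had no vehicle partner. All organoids grew in medium with Wnt, Noggin, R-spondin and EGF among other factors.

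The colonic epithelium keeps microbes at a distance with secreted proteins. Enterocytes carry IgA to the lumen, make hydrogen peroxide at their surface and release proteins that kill bacteria or withhold iron from them. Many of these genes are known to be switched on by microbial products and by cytokines of immune cells such as IL-22 and IL-17, which are made outside the epithelium.

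The data were of epithelium. All 10 markers of epithelium lay above background on every array, with a mean log2 level between 9.81 and 10.09. Of 12 measured leukocyte markers, 1 (Cd68) was above background on all 10 arrays and 3 (Cd79a, Itgam and Adgre1) on none, and the list mean lay between 2.82 and 3.12. Of 9 fibroblast and endothelial markers 3 (Col1a1, Col1a2 and Col3a1) were above background on all arrays, with a list mean between 2.66 and 2.82. Colonocyte markers averaged 6.09 to 7.16, and Aqp8 was at background throughout. Mouse 46 stood apart from the other mice on the principal component that held 27.4% of the variance, at -31.75 in rosiglitazone and -39.3 in vehicle, against -4.1 to 19.6 on the other arrays. Pparg itself read 7.37 to 8.78 in KO rosiglitazone arrays, 8.47 to 8.58 in KO vehicle arrays, 7.59 to 8.30 in WT rosiglitazone arrays and 8.34 to 8.41 in WT vehicle arrays. The sources used here do not say where its probes lie relative to the floxed exons. This probe set is therefore no check of the deletion or of the genotype labels, on which each direction between genotypes rests.

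All values are the authors' RMA expression on the log2 scale, where a difference of 1 is a doubling of signal. A probe set was counted as above background on an array where it exceeded the 95th percentile of 1169 probe sets for olfactory and vomeronasal receptors, genes that the colon is not known to use as a class. This threshold lay between 2.57 and 2.97. By that measure Pigr, Duox2 and Defb1 were above background on 10 of 10 arrays, Lcn2 and Reg3g on 9, Camp on 7, Nos2 on 3, Reg3b on 2 and Defb10 on 0. On every array of the group, 4 of the 9 genes were above background in KO rosiglitazone, 4 in KO vehicle, 6 in WT rosiglitazone and 7 in WT vehicle. The counts differ between groups through Lcn2, Reg3g, Camp and Nos2. Camp and Nos2 lay near the threshold range, between 2.18 and 3.41 over all arrays. Reg3g fell short in KO rosiglitazone on the array of mouse 46 alone, at 2.68 against a threshold of 2.78. Lcn2 fell short in KO vehicle on the array of mouse 46 alone, at 2.46 against 2.97.

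**Figure D1:**
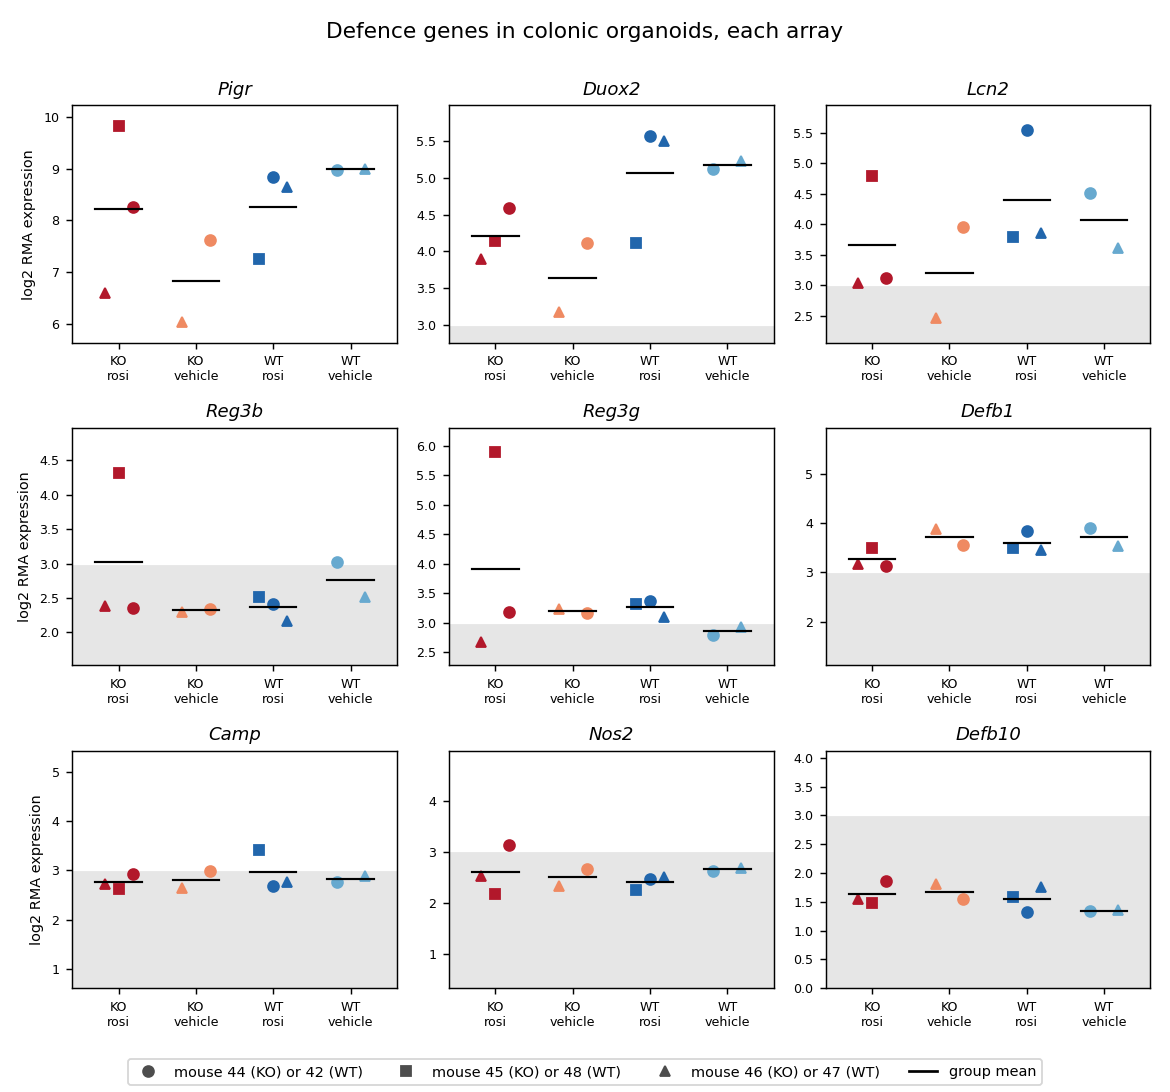
Log2 RMA expression (y axis, a separate scale in each panel) of the 9 measured defence genes on each of the 10 arrays, by group (x axis); symbols mark the donor mouse, horizontal bars the group mean, and the grey band levels up to the highest background threshold, 2.97. Pigr reads highest in the array of mouse 45 (9.82) and lowest in the arrays of mouse 46 (6.59 and 6.03), and Reg3b and Reg3g stand out on the array of mouse 45 alone (4.32 and 5.90).

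No member differed between groups at an adjusted p under 0.05. In limma, with p-values adjusted by Benjamini-Hochberg over 23099 probe sets, 0 of 9 members were called in KO vehicle against WT vehicle (background 0% of probe sets called), 0 in KO rosiglitazone against WT rosiglitazone (0.0216%), 0 in KO rosiglitazone against KO vehicle (0%), 0 in WT rosiglitazone against WT vehicle (0%) and 0 in the difference between the responses of the 2 genotypes (0%). At an unadjusted p under 0.05 there were 2 members (Duox2 and Pigr, both lower) in KO against WT vehicle, beside 5.69% of all probe sets (2.63% lower and 3.06% higher). There was 1 member (Duox2, lower) in KO against WT rosiglitazone, beside 4.81% of all probe sets (2.87% lower and 1.93% higher). There was 1 (Defb1, lower) in KO rosiglitazone against KO vehicle, beside 3.06% (1.88% lower and 1.18% higher), and 0 in WT rosiglitazone against WT vehicle (0.991%, 0.429% lower and 0.563% higher) and in the difference of responses (2.32%, 1.42% lower and 0.905% higher). With the donor mouse as a fixed block, which uses the 4 mice with both treatments, more members had an unadjusted p under 0.05 and none an adjusted p under 0.64. In KO rosiglitazone against KO vehicle there were 4 (Pigr, Duox2 and Nos2 higher, Defb1 lower), beside 7.49% of all probe sets in that fit. In WT rosiglitazone against WT vehicle there were 2 (Duox2 higher, Reg3b lower; 3.85%), and in the difference of responses 5 (Pigr, Reg3b and Nos2 positive, Reg3g and Defb1 negative; 5.09%). The spread between arrays of 1 group was wide for 5 members. Their SD within groups was 1.15 for Pigr, 1.00 for Reg3g, 0.95 for Lcn2, 0.67 for Reg3b and 0.58 for Duox2, larger than that of 97.8% to 99.7% of tested probe sets. For Nos2, Camp, Defb1 and Defb10 it was 0.19 to 0.30.

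Pigr, the polymeric immunoglobulin receptor, carries dimeric IgA across the epithelial cell and is released with it as secretory component. It was clearly above background on every array and had the widest range of the members. Pigr read 6.59, 9.82 and 8.25 in KO rosiglitazone organoids (mice 46, 45 and 44) and 6.03 and 7.62 in KO vehicle organoids (mice 46 and 44). It read 7.26, 8.83 and 8.65 in WT rosiglitazone organoids (mice 48, 42 and 47) and 8.98 and 8.99 in WT vehicle organoids (mice 42 and 47). Both KO vehicle arrays lay below both WT vehicle arrays, whereas under rosiglitazone the KO group spanned the whole WT range, with mouse 46 below it and mouse 45 above it.

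In KO vehicle organoids Pigr averaged 6.82 ± 1.12 against 8.99 ± 0.01 in WT vehicle organoids (SD, n = 2 each). The difference was -2.16 (SE 0.88, 95% interval -4.12 to -0.21), or 0.223 times the WT level, with limma's unadjusted p = 0.0333 and adjusted p = 0.855. Without the arrays of mouse 46 the difference was -1.37, and with the donor mouse as a random block it was -1.60. The same 2 KO vehicle arrays had a lower mean over 10 marker genes of colonocytes, the absorptive cells. This mean was 6.09 and 6.23 in KO vehicle organoids and 6.74 and 7.16 in WT vehicle organoids. Of these genes 8 were above background on every array in KO vehicle and 9 in WT vehicle. Slc9a3, a sodium and proton exchanger, averaged 3.63 ± 0.05 in KO vehicle and 6.71 ± 0.55 in WT vehicle, and Guca2a, the hormone guanylin, 5.04 ± 0.65 in KO vehicle and 7.23 ± 0.02 in WT vehicle (SD, n = 2 each). Under rosiglitazone the marker means overlapped, at 6.43 to 6.85 in KO and 6.16 to 6.98 in WT organoids. The part of these cells in the Pigr difference, and in each other difference between KO and WT vehicle given here, was not tested. Under rosiglitazone the difference was -0.03 (SE 0.72, interval -1.62 to 1.57, adjusted p = 0.999), and it was 0.79 without mouse 46 and -0.83 without the array of mouse 45. Its sign therefore rests on which of these mice is included.

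The Pigr response to rosiglitazone within a mouse had opposite signs in the genotypes. Rosiglitazone minus vehicle was 0.63 in mouse 44 and 0.56 in mouse 46, both KO, and -0.15 in mouse 42 and -0.34 in mouse 47, both WT. Each of these is smaller than the distance between KO mice 44 and 46 under 1 treatment (8.25 and 6.59 in rosiglitazone). Over all arrays the difference of responses was 2.14 (SE 1.14, interval -0.39 to 4.66, limma's unadjusted p = 0.0891, adjusted p = 1), and it was 1.34 without the array of mouse 45 or without the KO vehicle array of mouse 46. With the donor mouse as a fixed block it was 0.84 (SE 0.17, unadjusted p = 0.00182, adjusted p = 0.843). The arrays that this leaves out were high in KO mouse 45 (9.82) and low in WT mouse 48 (7.26).

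The promoter window of Pigr is shown because it holds, 71 bases before the annotated start, the only E-box (CACGTG, in capitals) among the 8 members with a promoter window. The 250 bases before the start lie at chr1:130826434-130826683 on the plus strand of GRCm38.p6, from RefSeq. An E-box was present in 6.05% of 27025 promoter windows searched on both strands.
Pigr: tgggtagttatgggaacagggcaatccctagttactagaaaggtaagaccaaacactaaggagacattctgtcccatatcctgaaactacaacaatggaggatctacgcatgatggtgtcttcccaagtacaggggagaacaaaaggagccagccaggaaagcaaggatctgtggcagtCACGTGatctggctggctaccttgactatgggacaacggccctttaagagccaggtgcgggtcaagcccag

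Duox2, the dual oxidase of the gut surface, makes hydrogen peroxide that peroxidases and bacteria consume, and needs the maturation factor Duoxa2 to leave the endoplasmic reticulum. In the limma fit without a block, Duox2 had the smallest unadjusted p of the members. It read 3.90, 4.14 and 4.59 in KO rosiglitazone organoids (mice 46, 45 and 44) and 3.18 and 4.11 in KO vehicle organoids (mice 46 and 44). It read 4.12, 5.56 and 5.50 in WT rosiglitazone organoids (mice 48, 42 and 47) and 5.12 and 5.22 in WT vehicle organoids (mice 42 and 47). The 4 WT arrays of mice 42 and 47 lay above all 5 KO arrays, and the array of WT mouse 48 lay among the KO arrays.

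The Duox2 level in KO vehicle organoids was 3.64 ± 0.66, against 5.17 ± 0.07 in WT vehicle organoids (SD, n = 2 each). The difference was -1.53 (SE 0.46, interval -2.54 to -0.52), or 0.347 times the WT level, with limma's unadjusted p = 0.00696 and adjusted p = 0.846. The mean of the colonocyte markers was lower in these KO arrays too (6.09 and 6.23 in KO vehicle, against 6.74 and 7.16 in WT vehicle), though not every marker was. Under rosiglitazone Duox2 averaged 4.21 ± 0.35 in KO organoids and 5.06 ± 0.81 in WT organoids (SD, n = 3 each), a difference of -0.85 (SE 0.37, interval -1.68 to -0.03, unadjusted p = 0.0437, adjusted p = 0.999). Over the alternatives run, the vehicle difference stayed between -2.0 and -1.06 and the rosiglitazone difference between -1.32 and -0.60, and the adjusted p did not fall below 0.257. Without the array of mouse 48 the rosiglitazone difference was -1.32.

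Within each mouse that had both treatments, Duox2 read higher in rosiglitazone than in vehicle. Rosiglitazone minus vehicle was 0.47 in KO mouse 44, 0.73 in KO mouse 46, 0.45 in WT mouse 42 and 0.27 in WT mouse 47. In limma with the donor mouse as a fixed block this was 0.60 in KO (unadjusted p = 0.0025, adjusted p = 0.64) and 0.36 in WT (unadjusted p = 0.0269, adjusted p = 1), so neither passed after adjustment. Without the block the difference was 0.56 (SE 0.42, adjusted p = 1) in KO organoids and -0.11 (SE 0.42, adjusted p = 1) in WT organoids, where the unpaired array of mouse 48 was low. The KO difference was 0.10 without the vehicle array of mouse 46 and 1.03 without that of mouse 44, and the WT difference was 0.36 without the array of mouse 48.

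Duox2 and Duoxa2 lie head to head, and the bases between their RefSeq gene records are shown because both genes varied together over the arrays. The interval of 159 bases lies at chr2:122298741-122298899 (GRCm38.p6, RefSeq, plus strand, Duoxa2 to the right), with a GC content of 54.7%. Capitals mark TATAAA 30 bases before the Duoxa2 start and TGACCT 96 bases before it, which is the reverse complement of AGGTCA, the hexamer that nuclear receptors are known to bind. Of all promoter windows, 13% held TATAAA and 13.8% held AGGTCA. The promoter window of Duox2 belongs to another annotated start, inside its gene record, and does not cover this interval.
Duox2 to Duoxa2: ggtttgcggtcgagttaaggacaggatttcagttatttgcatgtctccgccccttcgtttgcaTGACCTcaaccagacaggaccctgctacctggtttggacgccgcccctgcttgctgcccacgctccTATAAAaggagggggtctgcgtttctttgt

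Duoxa2 read 4.31, 4.57 and 5.30 in KO rosiglitazone organoids (mice 46, 45 and 44), 4.13 and 4.86 in KO vehicle organoids (mice 46 and 44), 4.67, 5.76 and 6.16 in WT rosiglitazone organoids (mice 48, 42 and 47) and 5.32 and 5.89 in WT vehicle organoids (mice 42 and 47). As for Duox2, both KO vehicle arrays lay below both WT vehicle arrays and mouse 48 was the lowest WT mouse. The KO minus WT difference was -1.11 (SE 0.47, limma adjusted p = 0.855) in vehicle and -0.80 (SE 0.38, adjusted p = 0.999) in rosiglitazone. The rosiglitazone difference was -1.23 without the array of WT mouse 48 and -0.49 without that of WT mouse 47. Over the 10 arrays, which come from 6 mice, Duox2 and Duoxa2 correlated at r = 0.953.

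Cyba, the p22phox subunit that the NADPH oxidases of the Nox family require, had the largest difference among the oxidant enzymes and partners. Cyba read 2.59, 7.26 and 5.01 in KO rosiglitazone organoids (mice 46, 45 and 44), 2.95 and 5.05 in KO vehicle organoids (mice 46 and 44), 5.62, 7.68 and 7.43 in WT rosiglitazone organoids (mice 48, 42 and 47) and 7.38 and 7.72 in WT vehicle organoids (mice 42 and 47). The paired mice lay at like levels in both treatments, with mouse 46 at background, mouse 44 between, and mice 42 and 47 high, and KO mouse 45 read within the WT range. The KO minus WT difference was -3.55 (SE 1.23, limma adjusted p = 0.846) in vehicle and -1.95 (SE 1.01, adjusted p = 0.999) in rosiglitazone. Without the arrays of mouse 46 these were -2.50 and -0.77, and without the array of mouse 45 the rosiglitazone difference was -3.11. Cyba followed Pigr (r = 0.91) more than Duox2 (r = 0.83) over the 10 arrays.

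**Figure D2:**
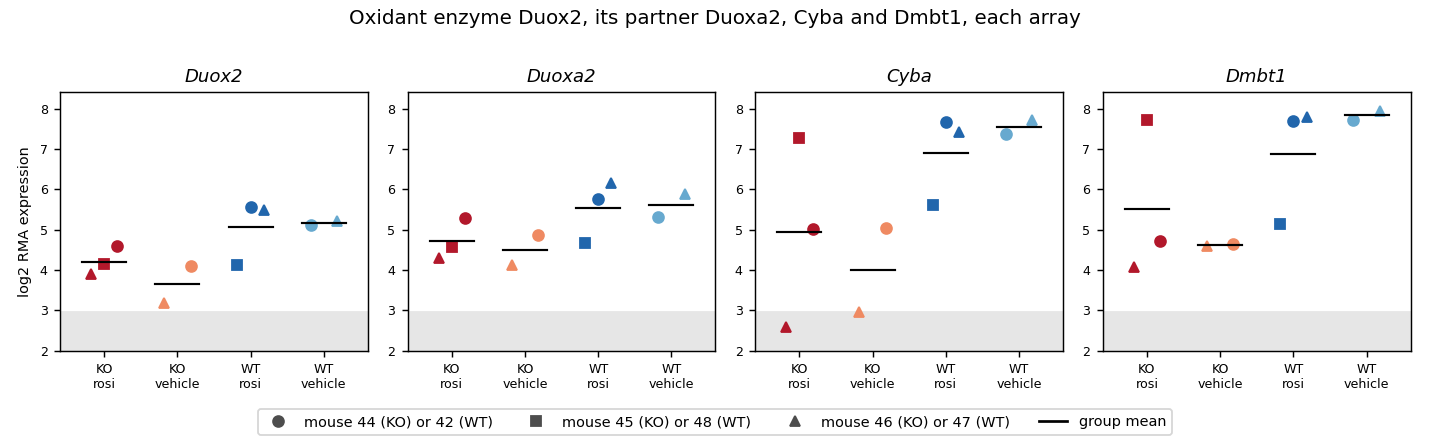
Log2 RMA expression (y axis, common scale) of Duox2, Duoxa2, Cyba and Dmbt1 on each array by group (x axis), with symbols for the donor mouse, bars for group means and grey for levels up to the highest background threshold. WT mice 42 and 47 read high in all 4 genes, WT mouse 48 reads lower, and KO mouse 45 reads 7.26 for Cyba and 7.73 for Dmbt1 but 4.14 for Duox2.

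Of the list of oxidant enzymes and partners, 14 of 17 genes were measured, 7 were above background in at least 1 whole group and 0 were called in any of the 5 comparisons (adjusted over all probe sets, limma). Under rosiglitazone 12 of the 14 read lower in KO than in WT, with a median of -0.18 beside 0 over all tested probe sets, and under vehicle 8 read lower, with a median of -0.10 beside 0.03. The vehicle median ran from -0.30 to 0.03 over the alternatives and was positive with arrays centred on their medians, which shifted all probe sets by 0.13 in that comparison. Lpo, lactoperoxidase, which uses hydrogen peroxide to oxidise thiocyanate, differed by -0.69 (SE 0.28, adjusted p = 0.999) in KO against WT rosiglitazone, and by -0.43 without the array of WT mouse 47. Noxo1, the organiser of the Nox1 oxidase, was high throughout (8.25 to 8.77) and differed by -0.30 (SE 0.17, adjusted p = 0.858) in KO against WT vehicle. Nox1 itself, named here after its values were seen, was above background on the array of mouse 45 alone (4.98, against 2.01 to 2.60 on the others). Duox1 was at background on all arrays.

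Nos2, the inducible nitric oxide synthase, was near background. It read 2.52, 2.18 and 3.13 in KO rosiglitazone organoids (mice 46, 45 and 44), 2.33 and 2.67 in KO vehicle organoids (mice 46 and 44), 2.26, 2.47 and 2.51 in WT rosiglitazone organoids (mice 48, 42 and 47) and 2.63 and 2.68 in WT vehicle organoids (mice 42 and 47). It exceeded the threshold on 1 KO rosiglitazone array and on both WT vehicle arrays, by small margins.

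Lcn2, lipocalin 2, binds bacterial siderophores and so withholds iron. It varied between mice and between the 2 treatments of a mouse. Lcn2 read 3.04, 4.80 and 3.13 in KO rosiglitazone organoids (mice 46, 45 and 44), 2.46 and 3.95 in KO vehicle organoids (mice 46 and 44), 3.79, 5.55 and 3.86 in WT rosiglitazone organoids (mice 48, 42 and 47) and 4.51 and 3.62 in WT vehicle organoids (mice 42 and 47). The groups overlapped in every comparison, and by the mean of a mouse's arrays mouse 42 was highest (5.03) and mouse 46 lowest (2.75). The KO minus WT difference was -0.86 (SE 0.73, limma adjusted p = 0.873) in vehicle and -0.75 (SE 0.60, adjusted p = 0.999) in rosiglitazone, the vehicle difference was -0.12 without mouse 46, and the rosiglitazone difference was -0.17 without the array of WT mouse 42. Rosiglitazone minus vehicle was 0.57 and -0.82 in KO mice 46 and 44, and 1.04 and 0.24 in WT mice 42 and 47. These responses have no common sign within KO.

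Reg3b and Reg3g are secreted C-type lectins. Reg3g is known to bind the peptidoglycan of Gram-positive bacteria and to keep them off the gut surface. Reg3b read 2.39, 4.32 and 2.36 in KO rosiglitazone organoids (mice 46, 45 and 44), 2.30 and 2.34 in KO vehicle organoids (mice 46 and 44), 2.52, 2.42 and 2.17 in WT rosiglitazone organoids (mice 48, 42 and 47) and 3.02 and 2.51 in WT vehicle organoids (mice 42 and 47). Reg3g read 2.68, 5.90 and 3.18 in KO rosiglitazone organoids (mice 46, 45 and 44), 3.23 and 3.17 in KO vehicle organoids (mice 46 and 44), 3.32, 3.37 and 3.10 in WT rosiglitazone organoids (mice 48, 42 and 47) and 2.79 and 2.93 in WT vehicle organoids (mice 42 and 47). Both lectins were near background except on the array of mouse 45, where Reg3g exceeded the next highest array by over 2 log2 units.

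The Reg3g differences were 0.66 (SE 0.63, limma adjusted p = 0.999) in KO against WT rosiglitazone and 0.72 (SE 0.70, adjusted p = 1) in KO rosiglitazone against KO vehicle. Without the array of mouse 45 they were -0.33 and -0.26, so the positive sign rests on that array. Within mice, rosiglitazone minus vehicle for Reg3g was 0.01 in KO mouse 44, -0.54 in KO mouse 46, 0.58 in WT mouse 42 and 0.17 in WT mouse 47. In KO against WT vehicle it was 0.34 (SE 0.77, adjusted p = 0.953), and in WT rosiglitazone against WT vehicle 0.40 (SE 0.70, adjusted p = 1), the rosiglitazone arrays lying above the vehicle arrays.

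The upstream windows of Reg3b and Reg3g are shown because these genes moved together on the array of mouse 45 and resemble each other. They lie on chromosome 6 of GRCm38.p6, that of Reg3b at chr6:78370635-78370884 (plus strand) and that of Reg3g at chr6:78468875-78469124 (minus strand), both from RefSeq and written 5′ to 3′ up to the base before the start. Aligned, 177 of 257 columns held the same base (68.9%). Capitals mark the longest run of letters that both share, 20 bases that end at the start.
Reg3b: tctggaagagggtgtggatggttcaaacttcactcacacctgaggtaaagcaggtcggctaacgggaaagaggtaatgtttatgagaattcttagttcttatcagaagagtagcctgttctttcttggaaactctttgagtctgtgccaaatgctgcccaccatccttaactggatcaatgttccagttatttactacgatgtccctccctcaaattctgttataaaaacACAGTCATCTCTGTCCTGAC
Reg3g: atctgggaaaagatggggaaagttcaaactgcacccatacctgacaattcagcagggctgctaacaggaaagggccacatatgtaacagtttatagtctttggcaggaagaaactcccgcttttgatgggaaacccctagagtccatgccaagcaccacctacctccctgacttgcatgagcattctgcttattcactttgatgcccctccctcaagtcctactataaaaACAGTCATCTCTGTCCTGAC

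Across promoter windows, 8 of the 10 genes were represented (all but Defb1 and Nos2), and 5 motifs were searched on both strands. The STAT motif TTCNNNGAA was found in Reg3b alone, 129 bases before the start, and in 7.18% of all windows. The NF-kB motif (GGG and TTTCC with 2 bases between) was found in none of the 8 (1.4% of all windows), and AGGTCA in Saa1 alone, 164 bases before the start on the minus strand. TATAAA was found in Reg3b (29 bases before the start) and in Reg3g (27 bases before it, and 161 bases before it on the minus strand). None of the 5 motifs was found in Lcn2, Camp, Defb10 or the Duox2 window. These matches are of letters alone, and no binding was measured.

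The array of mouse 45, the KO rosiglitazone array without a vehicle partner, was also the highest in markers of secretory cells. Its mean over 7 goblet cell markers was 8.12, against 3.83 to 6.42 on the other 9 arrays, with Muc2, the main gel-forming mucin, at 8.47 there and at 3.71 to 6.59 elsewhere. Its mean over 6 markers of deep crypt secretory and Paneth cells was 5.84, against 3.62 to 4.47 elsewhere. Defa24, a Paneth cell defensin, read 7.05 on that array and 1.50 to 3.45 on the others. Reg4, Lyz1 and Kit of this list were also highest there. Mptx1 (2.53, against up to 2.92 elsewhere) and Mmp7 (9.47, against up to 9.70 elsewhere) were not. Among the colonocyte markers, Slc26a3 (4.57), Car4 (7.10) and Guca2a (7.45) were likewise highest on that array, while Krt20 (6.12) and Ceacam20 (6.48) were lowest. The colonocyte mean there was 6.85, within the range of the other arrays. In bulk RNA, more cells of a type and more RNA per cell cannot be told apart. The part of secretory cells or colonocytes in the Reg3 and Pigr values was not tested. On that array 79 of 23099 probe sets (0.342%) exceeded every other array by at least 1 log2 unit, and Reg3b and Reg3g were the members among them.

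**Figure D3:**
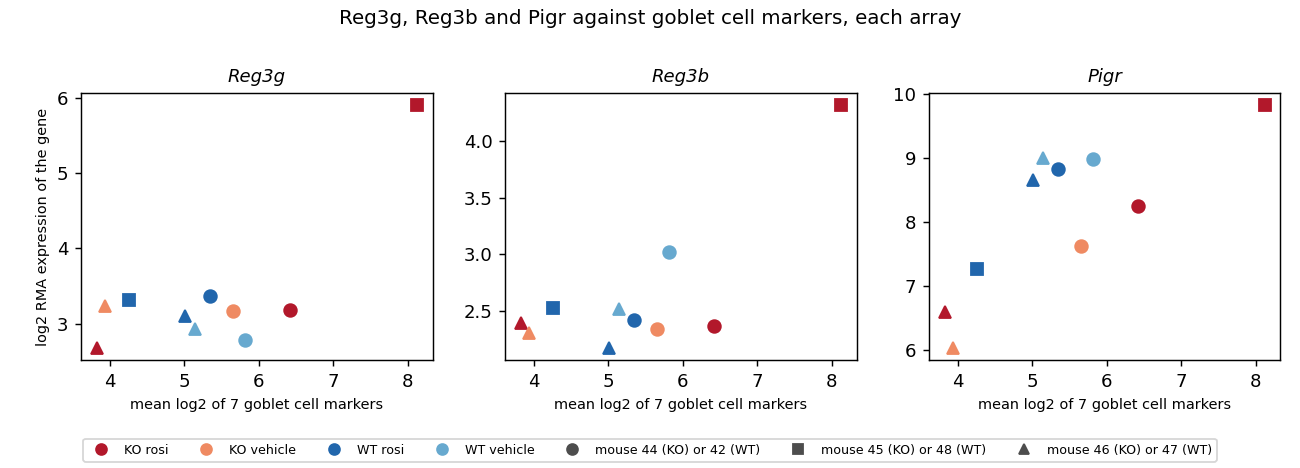
Log2 RMA expression of Reg3g, Reg3b and Pigr (y axes, a separate scale in each panel) against the mean log2 level of 7 goblet cell markers (x axis), 1 point per array, coloured by group with symbols for the donor mouse. The array of mouse 45 lies at a marker mean of 8.12, apart from the other 9 arrays (3.83 to 6.42), and holds the highest value of each gene.

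Defb1, beta-defensin 1, is a peptide that epithelia make without needing infection. It read 3.17, 3.50 and 3.13 in KO rosiglitazone organoids (mice 46, 45 and 44) and 3.88 and 3.55 in KO vehicle organoids (mice 46 and 44). It read 3.50, 3.84 and 3.45 in WT rosiglitazone organoids (mice 48, 42 and 47) and 3.91 and 3.53 in WT vehicle organoids (mice 42 and 47). The KO rosiglitazone arrays lay below the KO vehicle arrays with no overlap, while the WT groups overlapped.

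The Defb1 level was 3.26 ± 0.20 in KO rosiglitazone organoids (SD, n = 3), against 3.71 ± 0.23 in KO vehicle organoids (SD, n = 2). The difference was -0.45 (SE 0.19, interval -0.87 to -0.03, limma's unadjusted p = 0.0388, adjusted p = 1), and it was -0.24 without mouse 46. Within mice it was -0.42 in KO mouse 44 and -0.71 in KO mouse 46, against -0.08 in each of WT mice 42 and 47. In WT organoids the difference was -0.13 (SE 0.19, adjusted p = 1). The difference of responses was -0.32 (SE 0.27, interval -0.91 to 0.27, adjusted p = 1) over all arrays and -0.48 (SE 0.18, unadjusted p = 0.0318, adjusted p = 0.957) with the donor mouse as a fixed block. Leaving out single arrays moved the value over all arrays to between -0.51 and -0.13. Between genotypes it was -0.01 (SE 0.21, adjusted p = 0.996) in vehicle and -0.33 (SE 0.17, adjusted p = 0.999) in rosiglitazone, where it was -0.21 without WT mouse 42.

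Defb10, another beta-defensin, was below background on all arrays, with values from 1.32 to 1.86. Camp, the cathelicidin precursor, lay between 2.62 and 3.41, close to the threshold. Camp averaged 2.75 ± 0.15 in KO rosiglitazone (SD, n = 3), 2.80 ± 0.24 in KO vehicle (SD, n = 2), 2.96 ± 0.40 in WT rosiglitazone (SD, n = 3) and 2.82 ± 0.09 in WT vehicle (SD, n = 2). Its highest array was that of WT mouse 48. For neither peptide did the limma fit without a block give an unadjusted p under 0.05 in any comparison. Both lay too near background for small differences to be measured.

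Counted over the 9 measured members, the groups did not overlap for 5 in KO against WT vehicle, beside 39.1% of all probe sets. Of these 3 were lower (Reg3b, Pigr and Duox2; 16.1% of probe sets) and 2 higher (Reg3g and Defb10; 23.0%). Under rosiglitazone 0 members were free of overlap between KO and WT (8.69% of probe sets, 4.47% lower and 4.22% higher). In KO rosiglitazone against KO vehicle 2 were (13.7%), Defb1 lower (7.93%) and Reg3b higher (5.81%). In WT rosiglitazone against WT vehicle 3 were (15.4%), Pigr and Nos2 lower (6.78%) and Reg3g higher (8.65%). With 9 members behind each count, nothing particular to these genes is read from it.

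**Figure D4:**
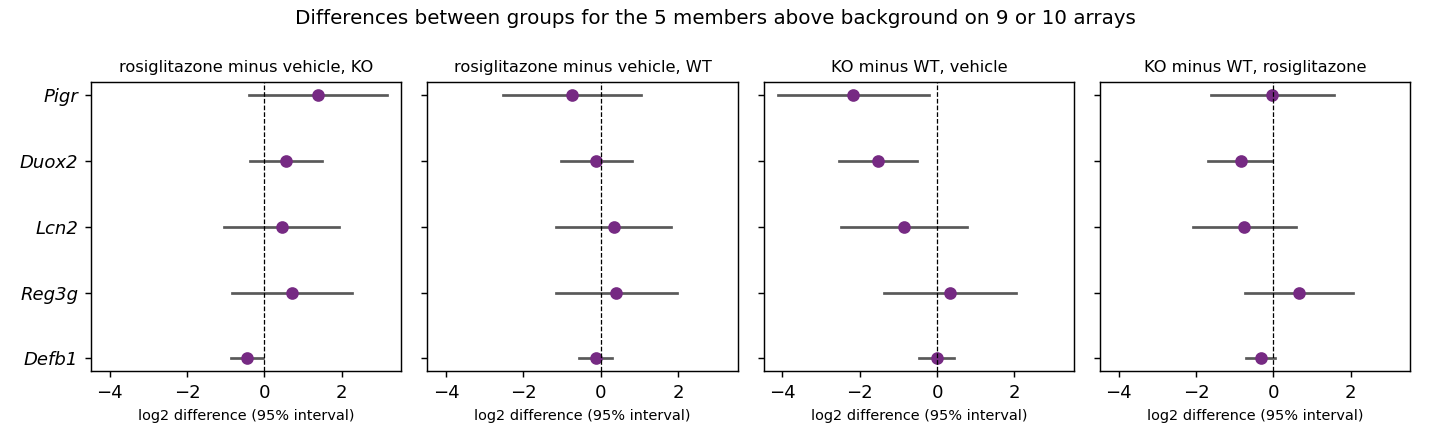
Log2 differences with 95% intervals from limma (x axes) for the 5 members above background on 9 or 10 arrays (y axis), in 4 comparisons, with the dashed line at 0. The intervals of Pigr and Duox2 in KO minus WT under vehicle (-4.12 to -0.21 and -2.54 to -0.52) lie below 0 before adjustment, and no difference passed the adjusted threshold.

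The genes whose levels most resembled the members' over the 10 arrays were picked as the 3 highest Pearson r among about 2090 variable, detected genes. These are descriptions over 10 arrays that share mice, and the highest of many values of r are high by choice. For Duox2 they were Adtrp (r = 0.972), Gna14 (0.967) and its partner Duoxa2 (0.953). For Pigr they were Tomm5 (0.971), Gpd1 (0.959) and Gnai1 (0.942), and for Lcn2 Cldn15 (0.918), Megf9 (0.892) and Zfp276 (0.890). For Reg3g they were Spopfm2 (0.958), Pla2g2a (0.930) and Ldlrad4 (0.930), which without the array of mouse 45 had r of 0.517, 0.248 and 0.184. For Defb1 they were Mirlet7b (0.830), Epdr1 (0.822) and Wnt5b (0.801), for Camp Ppp1r12b (0.952), Magea4 (0.906) and Gdf10 (0.878), and for Nos2 Ahnak2 (0.877), Ccdc68 (0.857) and Dlc1 (0.838). Among the members, Pigr and Duox2 had r = 0.71 over the 10 arrays and 0.95 without that of mouse 45.

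Other defensins and bactericidal proteins were described from a list of 30 genes, which also held S100g, Nupr1 and Chil3, not established as such. Of the list 27 were measured and 15 were above background in at least 1 whole group. None was called in any comparison by limma (adjusted over all probe sets). Under rosiglitazone 20 of 27 read higher in KO than in WT (median 0.14 beside 0 over all probe sets), a median that was -0.10 among brighter probe sets only, and in WT rosiglitazone against WT vehicle 20 of 27 read lower (median -0.09 beside 0.01). Dmbt1, a secreted scavenger protein that agglutinates bacteria, had the largest difference. It read 4.08, 7.73 and 4.71 in KO rosiglitazone organoids (mice 46, 45 and 44), 4.60 and 4.64 in KO vehicle organoids (mice 46 and 44), 5.14, 7.70 and 7.79 in WT rosiglitazone organoids (mice 48, 42 and 47) and 7.73 and 7.95 in WT vehicle organoids (mice 42 and 47). As with Cyba, KO mouse 45 read like WT mice 42 and 47, and WT mouse 48 read lower than the other WT mice, just above KO mice 44 and 46.

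Dmbt1 in KO against WT vehicle differed by -3.22 (SE 1.09, interval -5.63 to -0.81), or 0.107 times the WT level, with limma's adjusted p = 0.846. On the vehicle groups alone, limma's adjusted p was 0.0076, and on the 4 mice with both treatments it was 0.00244. These fits leave out mice 45 and 48, and so the spread between mice of a genotype that the arrays under rosiglitazone show. Retnlb, a goblet cell protein that kills Gram-negative bacteria, differed by 1.53 (SE 0.97, adjusted p = 1) in KO rosiglitazone against KO vehicle, and Zg16, a goblet cell lectin, by 1.44 (SE 0.99, adjusted p = 1). Without the array of mouse 45 these were 0.19 and 0.51, and without the KO rosiglitazone array of mouse 46 they were 2.32 and 2.50.

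Of the 5 other Reg genes, Reg4, a lectin of deep crypt secretory cells, was the only gene above background in a whole group. It read 2.49, 7.10 and 5.29 in KO rosiglitazone organoids (mice 46, 45 and 44), 3.04 and 3.42 in KO vehicle organoids (mice 46 and 44), 2.81, 2.99 and 2.92 in WT rosiglitazone organoids (mice 48, 42 and 47) and 2.90 and 2.77 in WT vehicle organoids (mice 42 and 47). KO mice 45 and 44 stood above the WT range and KO mouse 46 below it in rosiglitazone. Reg4 differed by 2.05 (SE 0.84, limma adjusted p = 0.999) in KO against WT rosiglitazone, by 0.98 without the array of mouse 45 and by 3.29 without that of mouse 46.

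The upstream parts of the pathway were measurable in these organoids. Of 17 measured genes for the IL-22 and IL-17 receptors and the STAT3 pathway, 15 were above background in at least 1 whole group, among them Il22ra1, the IL-22 receptor chain of epithelium, at 7.96 to 8.67, and Stat3 at 8.36 to 8.77. Of 31 measured pattern receptor and NF-kB genes 27 were, including Tlr1 to Tlr5, whereas Tlr6 to Tlr9 were at background. None of the 17 or of the 31 was called by limma in any comparison (adjusted over all probe sets). Under vehicle 11 of the 17 read lower in KO than in WT (median -0.06) and 20 of the 31 (median -0.10), beside 0.03 over all probe sets. Both medians turned positive (0.06 and 0.03) with arrays centred, where that of all probe sets was 0.16. Socs3, an inhibitor that STAT3 induces, differed by -0.81 (SE 0.43, adjusted p = 0.855) and Il22ra1 by 0.35 (SE 0.21, adjusted p = 0.859). Without the KO vehicle array of mouse 46 these were -0.45 and 0.64, and Il22ra1 differed by 0.06 without that of mouse 44. Tlr2, a receptor for bacterial lipoproteins, differed by -0.72 (SE 0.23, adjusted p = 0.846), Tlr1 by -0.73 (SE 0.36, adjusted p = 0.855) and Nod1, a sensor of peptidoglycan, by -0.65 (SE 0.29, adjusted p = 0.855), which was -0.41 without the WT vehicle array of mouse 47. Between KO and WT rosiglitazone the differences of Tlr2, Tlr1 and Nod1 were -0.22, -0.19 and 0.24. Nfkbie, of the same 31 genes, differed by 0.51 (SE 0.16, adjusted p = 0.924) between KO and WT rosiglitazone and by -0.12 in vehicle. Fut2, the fucosyltransferase that decorates the gut surface, differed between KO and WT organoids by -0.53 in vehicle (SE 0.17, adjusted p = 0.846). Under rosiglitazone the Fut2 difference was -0.53 as well (SE 0.14, adjusted p = 0.719).

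In the same way 0 of 15 measured acute phase and iron genes and 0 of 13 measured genes of IgA transport and mucosal chemokines were called. Ltf, lactoferrin, which binds free iron, differed by -1.05 (SE 0.23, interval -1.56 to -0.55, limma's unadjusted p = 0.000831, adjusted p = 0.661) in KO against WT vehicle. Its values were 3.59 and 3.33 in KO vehicle organoids and 4.68 and 4.35 in WT vehicle organoids, and the difference was -1.18 without mouse 46. Between KO and WT rosiglitazone Ltf differed by -0.55 (SE 0.19, adjusted p = 0.94), and the groups overlapped. Saa3, a serum amyloid A of epithelium and macrophages, was above background on all arrays. It differed by -0.79 (SE 0.36, adjusted p = 0.855) in KO against WT vehicle. That difference was -0.20 without the WT vehicle array of mouse 47 and -1.38 without that of mouse 42. Between KO and WT rosiglitazone Saa3 differed by -0.01. Slc40a1, the iron exporter ferroportin, differed by 0.67 (SE 0.20, adjusted p = 0.873) in KO against WT rosiglitazone. In vehicle the Slc40a1 difference was alike, at 0.66 (SE 0.24, adjusted p = 0.846). Ccl28, the chemokine that draws IgA plasma cells to mucosa, differed by 0.79 (SE 0.18, unadjusted p = 0.00133, adjusted p = 0.546) in KO against WT rosiglitazone. It read 4.35, 4.88 and 4.22 in KO rosiglitazone organoids, all above the WT rosiglitazone values of 3.64, 3.90 and 3.55. In vehicle the Ccl28 difference between KO and WT was 0.03.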

How the data were processed

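The authors deposited RMA values on the log2 scale for 35556 probe sets on 10 arrays; RMA is named in the submitters' processing notes, with version and chip definition not given in the sources used here. The 23099 probe sets of the platform annotation (21218 with 1 gene symbol, 1881 with several, 0 with none) were tested. All 10 columns matched a sample by name, and 0 pairs of arrays were identical. Arrays give no count depth, and the number of arrays limits the precision.

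Group means of the 4 groups were fitted with lmFit, contrasts and eBayes of limma 3.58.1 in R 4.3.3 on all 10 arrays, two-sided, with Benjamini-Hochberg adjustment over 23099 probe sets and a threshold of 0.05. The script was tested on simulated data. Donor identifiers pair the treatments of 4 mice: over probe sets, the difference between 2 mice of a genotype in vehicle had r = 0.44 (WT) and 0.487 (KO) with the same difference in rosiglitazone. Blocks used statmod 1.5.0 (consensus correlation 0.438). The fixed block fits a term for each mouse, which leaves little of the 10 arrays to estimate a gene's own spread. Its SEs and p-values therefore lean on limma's estimate of spread over all probe sets. Replicate numbers are not mouse numbers. Cultures within a mouse are not otherwise described, so p-values measure the spread between these arrays.

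Members and lists were chosen with earlier results of these data known. Named list genes are up to 4 per list with the largest difference in any pairwise comparison. Of these, Traf3ip2, Il18, Ccl25, Cxcl5 and Lrg1 are given no values here. Choices made after values were seen: fitted differences are printed for the 5 members above background on at least 9 arrays, and for Reg3b and Nos2 in the difference of responses alone; list genes are followed through the alternatives in the comparison of their largest difference (Duoxa2 and Cyba in both genotype comparisons); and the promoters and motifs shown. All 9 measured members enter the counts. Alternatives changed the block, scaling, normalization, filter, probe sets, arrays and weights. Promoter windows (250 bases before the start) are RefSeq's.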

Additional observations from a re-analysis of the deposited data

Results flagged for a closer look

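The responses of Pigr, Reg3b and Nos2 to rosiglitazone had opposite signs in the KO and the WT mice that had both treatments (2 mice of each genotype). The share of all probe sets with this sign pattern is not given here, so nothing particular to these genes is read from it. In limma with the donor mouse as a fixed block, 5.09% of all probe sets had an unadjusted p under 0.05 for the difference of responses. By limma the KO response minus the WT response was 2.14 for Pigr (SE 1.14), 1.10 for Reg3b (SE 0.68) and 0.35 for Nos2 (SE 0.34), each with adjusted p = 1 and an unadjusted p above 0.05. With the donor mouse as a fixed block it was 0.84 for Pigr (SE 0.17, unadjusted p = 0.00182, adjusted p = 0.843), 0.52 for Reg3b (SE 0.17, unadjusted p = 0.0218, adjusted p = 0.957) and 0.49 for Nos2 (SE 0.17, unadjusted p = 0.0276, adjusted p = 0.957). Rosiglitazone minus vehicle for Reg3b was 0.02 and 0.09 in KO mice 44 and 46, against -0.60 and -0.34 in WT mice 42 and 47. The KO values of Reg3b are too small to carry a direction. For Nos2 rosiglitazone minus vehicle was 0.45 and 0.19 in KO mice 44 and 46, against -0.16 and -0.17 in WT mice 42 and 47. Reg3b was above background on 2 of 10 arrays and Nos2 on 3, so those differences are between values near background. Without the array of mouse 45 the difference of responses was 1.34 for Pigr, 0.45 for Reg3b and 0.57 for Nos2, and without the KO rosiglitazone array of mouse 44 that of Nos2 was 0.09.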

How the results depend on the processing

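No member passed the threshold under any alternative run in any comparison. Whole-table calls in KO against WT vehicle (0) were 1 with the random replicate block, 2 with arrays centred, 1 with quantile normalization repeated, 1 with brighter probe sets only, 4 on the groups compared only, 6 on the 4 paired mice, and 0 to 6 leaving out single arrays or mouse 46. Under rosiglitazone, KO against WT calls (5) were 1 with quantile normalization repeated, 1 with all probe sets of the table, 1 on the groups compared only, 16 on the paired mice, 12 with array weights, and 1 to 23 leaving out arrays. In KO rosiglitazone against KO vehicle (0) there was 1 with the random replicate block. Of the other defensins and bactericidal proteins, 1 was called in KO against WT vehicle on the groups compared only and 1 on the paired mice, and 1 in KO against WT rosiglitazone on the paired mice.

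Members above background in KO rosiglitazone, KO vehicle, WT rosiglitazone and WT vehicle numbered 2, 2, 3 and 4 with the 99th percentile of receptor probe sets and 2, 1, 3 and 3 with the median of all probe sets. With the median of receptor probe sets, 8 were above in each KO group. Members without overlap in KO rosiglitazone against KO vehicle (2) were 0 with quantile normalization repeated and 2 to 6 leaving out arrays. Between KO and WT rosiglitazone (0) they were 5 on the paired mice and 0 to 3 leaving out arrays. Between KO and WT vehicle (5) they were 5 to 8, and in WT rosiglitazone against WT vehicle (3) 5 on the paired mice and 3 to 5 leaving out arrays.

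The donor mouse as a replicate block turned some signs. Lcn2 in KO rosiglitazone against KO vehicle (0.45) was -0.12 with the fixed block and on the paired mice, and Reg3g (0.72) was -0.26 with each. Duox2 in WT rosiglitazone against WT vehicle (-0.11) was 0.10 with the random block, 0.36 with the fixed block and on the paired mice, and 0.12 with array weights. The difference of responses of Lcn2 (0.11) was -0.27 with the random block, -0.76 with the fixed block and on the paired mice, and -0.15 with array weights; that of Reg3g (0.32) was -0.10 with the random block and -0.64 with the fixed block and on the paired mice. Defb1 in KO against WT vehicle (-0.01) was 0.06 with the random block, 0.12 with arrays centred and 0.00 with quantile normalization repeated. Pigr in KO against WT rosiglitazone (-0.03) was 0.06 with arrays centred and 0.00 with quantile normalization repeated, and Reg3g there (0.66) was -0.30 on the paired mice. Members at an unadjusted p under 0.05 ran from 0 to 4 in KO rosiglitazone against KO vehicle, 0 to 2 in WT rosiglitazone against WT vehicle, 0 to 5 in the difference of responses, 0 to 3 in KO against WT rosiglitazone and 0 to 3 in KO against WT vehicle, with the highest count of the first 3 under the fixed block. Over all probe sets these counts ran from 275 to 1776, 64 to 889, 187 to 1175, 638 to 1936 and 562 to 2296.

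Leaving out single arrays or mouse 46 also turned signs. Differences in KO rosiglitazone against KO vehicle ran from -0.29 to 1.19 for Lcn2 and from -0.26 to 1.34 for Reg3g (1.37 without mouse 46). Between KO and WT rosiglitazone they ran from -0.83 to 0.79 for Pigr and from -0.33 to 1.27 for Reg3g, and in KO against WT vehicle from -0.20 to 0.18 for Defb1. In WT rosiglitazone against WT vehicle they ran from -0.32 to 0.07 for Defb1, from -0.36 to 0.36 for Duox2 and from -0.24 to 0.78 for Lcn2. Differences of responses ran from -0.63 to 0.85 for Lcn2 and from -0.67 to 0.94 for Reg3g (0.97 without mouse 46). The cause was not tested. The fixed block gives no genotype comparison, no member had another probe set of its own to try, and Reg3b, Defb10, Camp and Nos2 lay too near background for small differences to be measured.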

Other observations

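Wfdc2, an epithelial protein with antiprotease and antibacterial activity, was low in both arrays of WT mouse 47 alone. It read 3.98 in rosiglitazone and 3.65 in vehicle in that mouse. On the other 8 arrays it read between 8.63 and 9.76. Its KO minus WT difference in vehicle, 3.05 (SE 1.70, limma adjusted p = 0.855), was 0.52 without the WT vehicle array of that mouse and 5.57 without that of mouse 42.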
